A study of Sus scrofa with 8 samples.

Results

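The aryl hydrocarbon receptor set held 7 genes: the receptor AHR, its partner ARNT, the cytochrome P450 enzymes CYP1A1 and CYP1B1, the feedback genes AHRR and TIPARP, and the quinone reductase NQO1. It was chosen by measured values of these samples, because CYP1A1 and CYP1B1 were high in one neobladder and low in native bladder and peritoneum. All 7 symbols matched 1 gene each among the 31907 genes of the count files, and all 7 were among the 16549 genes that passed the filter on low counts. The study examined whether an animal's own peritoneum could replace the mucosa of a urinary reservoir built from ileum. Messenger RNA was sequenced from Guizhou minipigs aged 8 months, in 4 groups of 2 libraries each: mucosa of the experimental neobladder (MN-Exp), mucosa of the control neobladder (MN-Ctrl), normal peritoneum (NP) and mucosa of the normal bladder (MNB). The lining of the control reservoir, the time since surgery and any agent given are not stated in the labels. The labels also do not say whether the libraries of a group came from separate animals, so the p-values measure only the spread between these samples, which may be technical.

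AHR is a receptor that waits in the cytosol bound to HSP90 chaperones until a small planar molecule binds it, such as a polycyclic aromatic hydrocarbon or an indole made from tryptophan by diet or gut bacteria. It then enters the nucleus, pairs with ARNT and switches on CYP1A1, CYP1B1, AHRR, TIPARP and NQO1, among other genes. CYP1 enzymes oxidise the activating molecules and so help to clear them, while AHRR and TIPARP restrain the receptor. Intestinal mucosa meets such molecules in food and bacterial products, and urothelium meets their metabolites in urine.

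Library totals ran from 7939291 to 11884868 counts. Levels are CPM, counts divided by library size after scaling by trimmed mean of M-values (TMM), and a count of 3 in a library equals 0.224 to 0.562 CPM on that scale. MN-Ctrl replicate 2 stood apart, with a TMM factor of 0.449 against 0.839 to 1.24 in the other libraries, and the 10 most abundant genes took 16.5 and 22.9% of the MN-Ctrl counts, against 5.87 to 16.4% elsewhere. Results on MN-Ctrl are therefore given with and without that library where it matters. A call means an adjusted p under 0.05 by edgeR's quasi-likelihood test with Benjamini-Hochberg adjustment over all 16549 genes. With 2 libraries a group, lack of overlap between groups is common. It held for 60.3% of all genes in MN-Exp against MN-Ctrl and 62.7% in MN-Ctrl against MNB. The share was 69.5% in MN-Ctrl against NP and 70% in NP against MNB. It was not counted in the comparisons of MN-Exp with MNB or NP, so lack of overlap there has no background beside it. CYP1A1 and CYP1B1 received no test, because their values chose the set, and the other 5 members received none in the comparisons of MN-Exp with MNB or NP.

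CYP1A1 encodes the most strongly inducible of the enzymes that oxidise aromatic hydrocarbons. It stood at 2623 and 4065 CPM in MN-Exp and at 843 and 466 CPM in MN-Ctrl. In NP it stood at 5.81 and 3.65 CPM, and in MNB at 6.87 and 4.71 CPM. Both neobladders were thus far above both native tissues, and MN-Exp was above MN-Ctrl, with no overlap of libraries. MN-Exp and MN-Ctrl did not overlap for 60.3% of all genes. NP and MNB overlapped and made up the low end of the order. The mean was 3344 ± 1019 CPM in MN-Exp and 655 ± 267 CPM in MN-Ctrl (SD, n = 2 each), a log2 fold change of 2.35. That fold was 2.87 without MN-Ctrl replicate 1 and 2.00 without MN-Ctrl replicate 2. Against MNB, at 5.79 ± 1.53 CPM, the log2 fold change was 9.17 for MN-Exp and 6.82 for MN-Ctrl. The 9.17 ranked 3 of 16549 genes by signed log2 fold change in that comparison, and 5 by absolute size. Its values chose the set, so these ranks are a description only. Against NP, at 4.73 ± 1.52 CPM, it was 9.46 for MN-Exp and 7.11 for MN-Ctrl. The RefSeq annotation of Sscrofa11.1, the assembly of the files, puts CYP1A1 at chr7:58802887-58809155.

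CYP1A2, the neighbouring paralogue that is best known from liver, lies at chr7:58779529-58786155. It had 106 and 120 counts in MN-Exp and 22 and 9 counts in MN-Ctrl, against 2 counts in NP and 2 counts in MNB over both libraries. Its counts were 0.342 and 0.274% of the CYP1A1 counts in MN-Exp and 0.284 and 0.362% in MN-Ctrl. The share was therefore close to the same in these 4 neobladder libraries, whose CYP1A1 levels differed widely. It was 3.51 and 0% in NP and 0 and 3.17% in MNB, where it rests on 2 counts a group. Whether reads from CYP1A1 were assigned to CYP1A2 was not tested, and the CYP1A2 values are uncertain. The summed level of 5 hepatocyte markers was 0.762 to 6.15 CPM in every library.

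CYP1B1, a CYP1 enzyme of tissues outside the liver that also oxidises oestradiol, was high in MN-Exp alone. Its level was 163 and 366 CPM in MN-Exp, 31.6 and 25.1 CPM in MN-Ctrl, 27.1 and 31.4 CPM in NP, and 28.0 and 13.97 CPM in MNB. Both MN-Exp libraries were above all 6 others, and the other 3 groups overlapped. The mean was 265 ± 143 CPM in MN-Exp and 28.3 ± 4.58 CPM in MN-Ctrl (SD, n = 2 each), a log2 fold change of 3.22. The log2 fold change of MN-Ctrl was 0.44 against MNB and -0.04 against NP, and on library totals alone it was -0.39 against MNB and -0.92 against NP. CYP1A1 had 16.06 and 11.11 counts per CYP1B1 count in MN-Exp and 26.7 and 18.6 in MN-Ctrl, against 0.214 and 0.116 in NP and 0.245 and 0.337 in MNB. Both MN-Exp ratios lay below both MN-Ctrl ratios. The nearest pair, 16.06 in MN-Exp replicate 1 and 18.6 in MN-Ctrl replicate 2, lay nearer to each other than to the second library of either group.

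**Figure D1:**
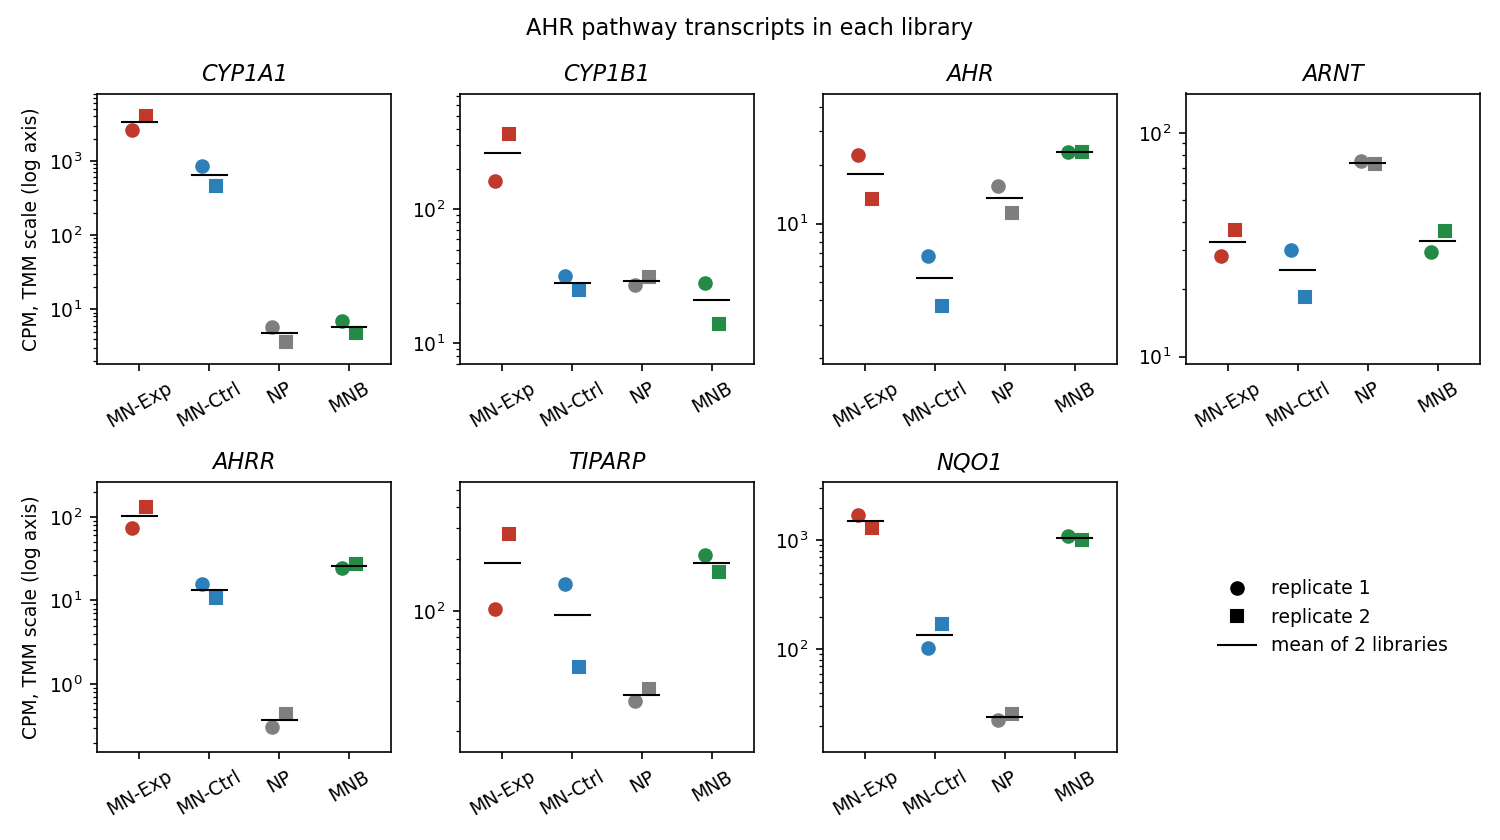
Level of each of the 7 genes in every library, in CPM on the TMM scale (log axis, a separate axis for each gene). Circles are replicate 1, squares replicate 2 and lines the mean of 2 libraries. CYP1A1 was high in both neobladders, CYP1B1 in MN-Exp alone, and AHRR was nearly absent from NP.

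The receptor itself did not follow the enzymes. AHR stood at 22.6 and 13.4 CPM in MN-Exp, 6.75 and 3.75 CPM in MN-Ctrl, 15.7 and 11.4 CPM in NP, and 23.6 and 23.5 CPM in MNB. MN-Ctrl had the lowest receptor level of the 4 groups although its CYP1A1 was second, and MNB had the highest although its CYP1A1 averaged 5.79 CPM. MN-Exp and NP overlapped. AHR was higher in MN-Exp, at 18.0 ± 6.50 CPM, than in MN-Ctrl, at 5.25 ± 2.12 CPM (SD, n = 2 each), with a log2 fold change of 1.76 (SE 0.45, adjusted p = 0.0206). Without MN-Exp replicate 1 it was 1.36 (adjusted p = 0.155), and without MN-Ctrl replicate 2 it was 1.42 (adjusted p = 0.0497). AHR was lower in MN-Ctrl than in MNB (log2 fold change -2.14, SE 0.46, adjusted p = 0.00836), also without MN-Ctrl replicate 2 (-1.80, adjusted p = 0.0183). It was lower in MN-Ctrl than in NP by a smaller margin (log2 fold change -1.34, SE 0.45, adjusted p = 0.0349), and that call was lost without MN-Ctrl replicate 2 (-0.98, adjusted p = 0.113). NP and MNB gave a log2 fold change of -0.80 (SE 0.43, adjusted p = 0.214). For MN-Exp, untested, the log2 fold change was -0.38 against MNB and 0.41 against NP. AHR lies at chr9:86511866-86555950, where the annotation has 2 overlapping long noncoding genes. The labels do not state whether counting used strand, so reads of these genes cannot be told apart.

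ARNT, which AHR shares with the hypoxia-inducible factors, was highest in peritoneum. It stood at 28.1 and 36.9 CPM in MN-Exp, 30.1 and 18.5 CPM in MN-Ctrl, 75.1 and 72.4 CPM in NP, and 29.4 and 36.3 CPM in MNB. Both NP libraries were above the other 6, and MN-Exp overlapped both MN-Ctrl and MNB. ARNT was lower in MN-Ctrl than in NP (log2 fold change -1.60, SE 0.38, adjusted p = 0.00704; -1.27 and adjusted p = 0.00917 without MN-Ctrl replicate 2). It was higher in NP, at 73.8 ± 1.86 CPM, than in MNB, at 32.9 ± 4.88 CPM (SD, n = 2 each; log2 fold change 1.17, SE 0.37, adjusted p = 0.0468). That call was lost with replicate number as a block (adjusted p = 0.0666), and leaving out any 1 library of MN-Exp, NP or MNB gave an adjusted p of 0.0930 to 0.331. MN-Exp against MN-Ctrl gave 0.41 (SE 0.37, adjusted p = 0.447). MN-Ctrl against MNB gave -0.43 (SE 0.37, adjusted p = 0.427). ARNT lies at chr4:98333431-98390012 and its span overlaps CTSK, a cathepsin gene, so its counts carry the same limit on strand.

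AHRR resembles AHR but represses its targets and is itself induced by the receptor. It stood at 74.2 and 130.2 CPM in MN-Exp, 15.9 and 10.7 CPM in MN-Ctrl, 0.306 and 0.446 CPM in NP, and 24.3 and 27.3 CPM in MNB. The groups did not overlap, an outcome shared by most genes in the comparisons given above. MN-Exp was the highest, and the NP levels rest on 3 and 5 counts. AHRR was higher in MN-Exp, at 102 ± 39.6 CPM, than in MN-Ctrl, at 13.3 ± 3.69 CPM (SD, n = 2 each), with a log2 fold change of 2.93 (SE 0.42, adjusted p = 0.000941). MN-Ctrl was below MNB in both libraries, with a log2 fold change of -0.95 that missed the threshold (SE 0.40, adjusted p = 0.112), and was -1.29 (adjusted p = 0.0278) without MN-Ctrl replicate 1 and -0.70 (adjusted p = 0.245) without MN-Ctrl replicate 2. AHRR was higher in MN-Ctrl than in NP (log2 fold change 5.10, SE 0.54, adjusted p = 8.33e-05) and lower in NP than in MNB (-6.05, SE 0.55, adjusted p = 7.83e-05). MN-Ctrl therefore held far more CYP1A1 than MNB and, in both of its libraries, less AHRR. For MN-Exp, untested, the log2 fold change was 1.99 against MNB and 8.03 against NP. AHRR lies at chr16:79730920-79810183.

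TIPARP encodes an ADP-ribosyltransferase that modifies AHR and shortens its activity. It stood at 102 and 279 CPM in MN-Exp, 143 and 47.0 CPM in MN-Ctrl, 30.2 and 35.1 CPM in NP, and 210 and 168 CPM in MNB. The spread within each neobladder was wide, MN-Exp overlapped both MN-Ctrl and MNB, and both NP libraries were lowest. MN-Exp averaged 190 ± 125 CPM and MN-Ctrl 94.9 ± 67.8 CPM (SD, n = 2 each), with a log2 fold change of 1.0004 that missed the threshold (SE 0.58, adjusted p = 0.242). It was 2.04 (adjusted p = 0.0260) without MN-Ctrl replicate 1 and 0.42 (adjusted p = 0.648) without MN-Ctrl replicate 2. Leaving out the same libraries moved MN-Ctrl against MNB, at -0.99 (SE 0.58, adjusted p = 0.240), to -2.03 (adjusted p = 0.0263) without replicate 1 and -0.40 (adjusted p = 0.659) without replicate 2. MN-Ctrl against NP gave 1.54 (SE 0.59, adjusted p = 0.0575), 0.53 (adjusted p = 0.433) without MN-Ctrl replicate 1 and 2.15 (adjusted p = 0.0128) without MN-Ctrl replicate 2. TIPARP was lower in NP than in MNB (-2.53, SE 0.61, adjusted p = 0.0151). That call was lost without MNB replicate 1 (adjusted p = 0.0746), NP replicate 1 (0.101) or NP replicate 2 (0.0808). MN-Exp against MNB, untested, gave 0.01, and MN-Exp against NP gave 2.54. The gene lies at chr13:96496386-96524879.

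NQO1 reduces quinones and answers both to AHR and to NRF2, the regulator of the oxidative stress response. It stood at 1716 and 1303 CPM in MN-Exp, 102 and 172 CPM in MN-Ctrl, 22.7 and 25.4 CPM in NP, and 1105 and 1012 CPM in MNB. The order was MN-Exp, MNB, MN-Ctrl and NP, with no overlap between neighbours, which is common with 2 libraries a group. NQO1 was higher in MN-Exp, at 1509 ± 292 CPM, than in MN-Ctrl, at 137 ± 49.1 CPM (SD, n = 2 each; log2 fold change 3.46, SE 0.50, adjusted p = 0.000965). It was lower in MN-Ctrl than in MNB (-2.95, SE 0.49, adjusted p = 0.00221), higher in MN-Ctrl than in NP (2.51, SE 0.49, adjusted p = 0.00253) and lower in NP than in MNB (-5.46, SE 0.55, adjusted p = 0.000139). Without MN-Ctrl replicate 2 the log2 fold change was 3.89 for MN-Exp against MN-Ctrl, -3.37 for MN-Ctrl against MNB and 2.11 for MN-Ctrl against NP, all of them called. For MN-Exp, untested, it was 0.51 against MNB and 5.97 against NP. NQO1, at chr6:17292962-17302593, thus stood in MN-Ctrl on the opposite side of MNB from CYP1A1.

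**Figure D2:**
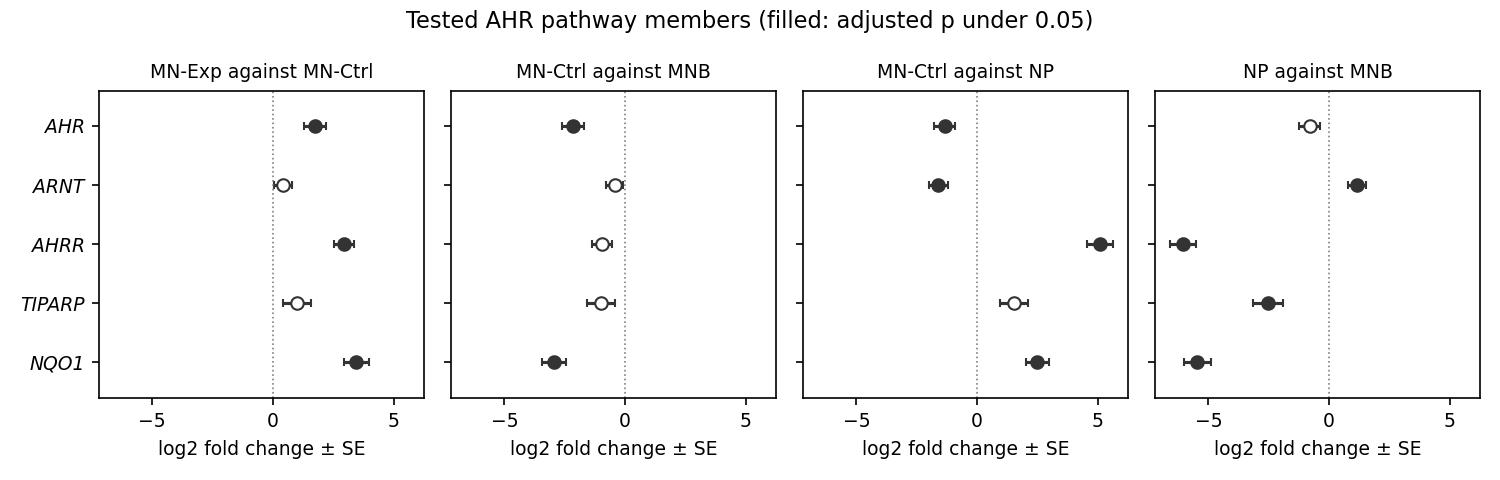
Log2 fold change with its SE for the 5 tested genes in 4 comparisons, the group named first over the group named second. Filled points had an adjusted p under 0.05. NQO1 was called in all 4 comparisons and AHRR in 3. AHR was called lower in MN-Ctrl than in each other group. Its log2 fold change was 1.76 in MN-Exp against MN-Ctrl, -2.14 in MN-Ctrl against MNB and -1.34 in MN-Ctrl against NP.

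Of the 5 tested members, 3 rose in MN-Exp relative to MN-Ctrl and 0 fell, where 21.7% of all genes were called. In MN-Ctrl against MNB, 0 rose and 2 fell, with a background of 22.3% of all genes. In MN-Ctrl against NP, 2 rose and 2 fell (background 42.3%), and in NP against MNB 1 rose and 3 fell (background 21.1%). With so few members these counts are a description. The share of all genes called was 0.0967% in MN-Exp against MNB and 24.2% in MN-Exp against NP, the comparisons that chose the set. The MN-Exp libraries also differed from each other. On the log2 scale, replicate 2 minus replicate 1 was 0.63 for CYP1A1, 1.16 for CYP1B1, 0.81 for AHRR and 1.45 for TIPARP, while it was -0.74 for AHR and -0.40 for NQO1. In MN-Ctrl the same difference was -0.85 for CYP1A1, -0.33 for CYP1B1, -0.82 for AHR, -0.57 for AHRR, -1.60 for TIPARP and 0.75 for NQO1.

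Among listed AHR targets other than the 7 genes, 11 were tested in MN-Exp against MN-Ctrl, of which 2 rose and 0 fell, where 21.7% of all genes were called. Their median log2 fold change was 1.02, beside 0.11 for all genes. TGM1, a transglutaminase that cross-links proteins in the outer layers of stratified epithelium, stood at 37.5 and 53.4 CPM in MN-Exp. It stood at 0.762 and 0.562 CPM in MN-Ctrl and at 38.5 and 17.9 CPM in MNB, which overlapped MN-Exp. In MN-Exp against MN-Ctrl TGM1 rose by 6.04 (adjusted p = 0.000104) and was called without any 1 library. PTGS2, the inducible cyclooxygenase, likewise overlapped between MN-Exp, at 7.80 and 34.3 CPM, and MNB, at 36.5 and 12.6 CPM. It stood at 1.31 and 1.31 CPM in MN-Ctrl. Its log2 fold change in MN-Exp against MN-Ctrl was 3.99 (adjusted p = 0.00668). That call was lost without MN-Exp replicate 2 or either MN-Ctrl library. The tight junction gene OCLN, the actin-severing gene SCIN and the growth factor EREG missed the threshold, with log2 fold changes of 1.02 for OCLN (adjusted p = 0.209), -0.54 for SCIN (adjusted p = 0.446) and -1.04 for EREG (adjusted p = 0.326).

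The same 11 targets had a median log2 fold change of -2.67 in NP against MNB, where 6 fell and 0 rose and 21.1% of all genes were called. SCIN stood at 5.91 and 5.17 CPM in NP, against 175 and 165 CPM in MNB (log2 fold change -4.94, adjusted p = 0.000303). OCLN stood at 13.7 and 27.7 CPM in NP, against 390 and 221 CPM in MNB (-3.88, adjusted p = 0.00177). EREG had 1 count over both NP libraries, against 37.6 and 7.77 CPM in MNB. In MN-Ctrl against MNB, 1 rose and 2 fell (22.3% of all genes called). The 1 that rose was CYP1A2, with its uncertain counts (adjusted p = 0.0153, and 0.117 without MNB replicate 1), and TGM1 fell by 5.35 on the log2 scale (adjusted p = 0.000178).

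None of the 13 tested genes of the receptor complex (chaperones and coactivators) was called in MN-Exp against MN-Ctrl or in MN-Ctrl against MNB. Of all genes, 21.7 and 22.3% were called there. The list had a median log2 fold change of 0.20 and -0.56. At an unadjusted p under 0.05 there were 2 in the first comparison and 1 in the second, and DESeq2 called 1 in each. HSP90AA1, the chaperone that holds AHR in the cytosol, stood at 598 and 532 CPM in MN-Exp, 489 and 497 CPM in MN-Ctrl, 604 and 537 CPM in NP, and 662 and 529 CPM in MNB. Its log2 fold change in MN-Exp against MN-Ctrl was 0.20 (adjusted p = 0.769). HSP90AB1, the other cytosolic form, gave 0.56 (adjusted p = 0.308), and the cochaperone PTGES3 gave 0.03 (adjusted p = 0.974). In NP against MNB, where 21.1% of all genes were called, the coactivator CREBBP rose alone, by 1.35 (adjusted p = 0.0265). That call was lost without any 1 library of MN-Exp, NP or MNB.

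**Figure D3:**
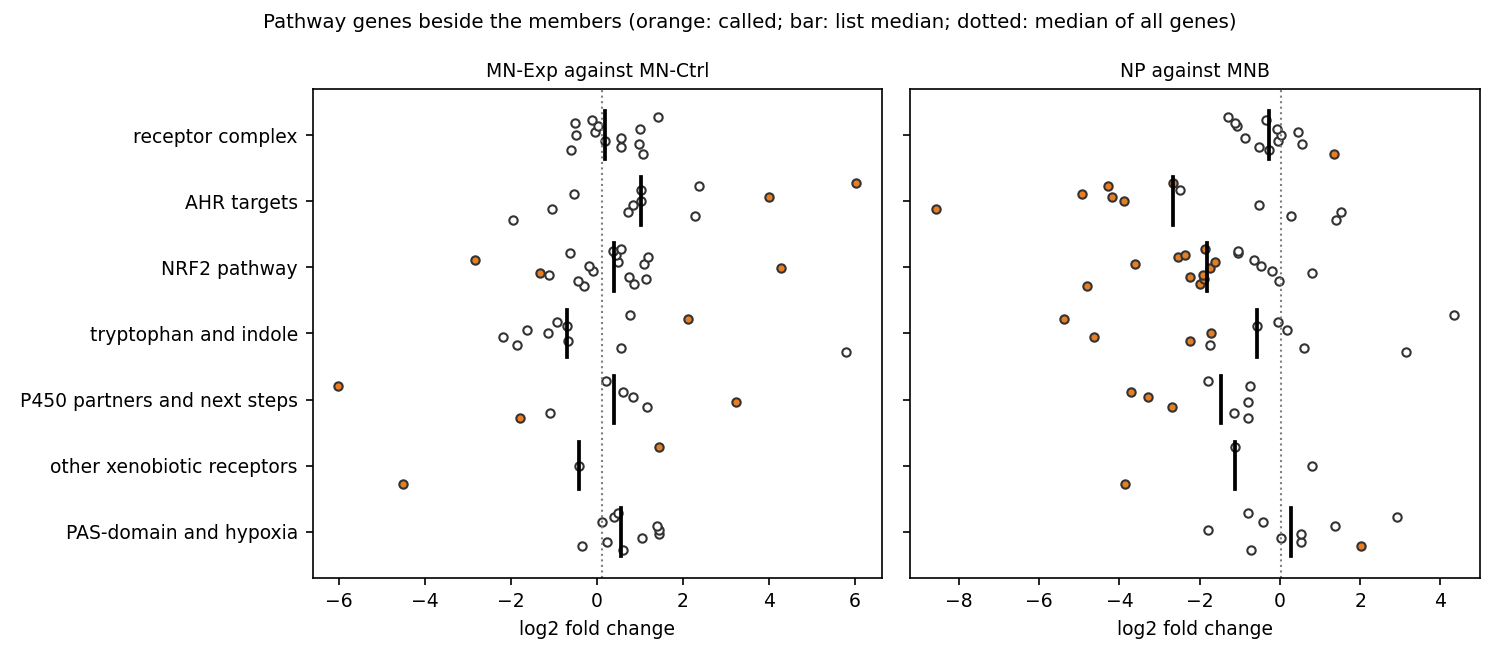
Log2 fold change of each tested gene of 7 pathway lists in MN-Exp against MN-Ctrl (left) and NP against MNB (right). Orange points were called, black bars are list medians and the dotted line is the median of all genes. The AHR targets and the NRF2 list lay to the left in NP against MNB, at medians of -2.67 and -1.81.

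NRF2 pathway genes, which share NQO1 with AHR, were compared to see how far NQO1 moved with that list. Of 18 tested, 1 rose and 2 fell in MN-Exp against MN-Ctrl (21.7% of all genes called; median log2 fold change 0.41). ME1, which makes NADPH, rose by 4.28 (adjusted p = 0.000928), with 113 and 129 CPM in MN-Exp against 10.02 and 2.06 CPM in MN-Ctrl. PRDX1, a peroxiredoxin, gave -2.83 (adjusted p = 0.0124), lost without MN-Exp replicate 1 or 2 (highest adjusted p 0.130). It stood at 584 and 506 CPM in MN-Exp, against 1609 and 6149 CPM in MN-Ctrl. GCLM, a subunit of the glutathione-making ligase, averaged 20.8 ± 1.07 CPM in MN-Exp and 12.3 ± 1.73 CPM in MN-Ctrl (SD, n = 2 each). It was not called there. In NP against MNB, 11 of the 18 fell and 0 rose (21.1% of all genes called). GCLM stood at 6.42 and 5.17 CPM in NP, against 28.4 and 26.6 CPM in MNB (log2 fold change -2.25, adjusted p = 0.00216). The cystine importer SLC7A11 fell by 2.55 (adjusted p = 0.00504). ABCC2, an exporter of conjugates, had 6 counts over both NP libraries, against 7.19 and 9.11 CPM in MNB (adjusted p = 0.0022).

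The genes that work beside or after P450 enzymes split. Of 8 tested in MN-Exp against MN-Ctrl, 1 rose and 2 fell (21.7% of all genes called). CYB5R3, the cytochrome b5 reductase, stood at 58.7 and 69.0 CPM in MN-Exp and at 6.10 and 7.49 CPM in MN-Ctrl, and rose by 3.24 (adjusted p = 0.0003). GSTM3, a glutathione transferase, was among those that fell, with 9 counts over both MN-Exp libraries, against 11.9 and 41.8 CPM in MN-Ctrl (adjusted p = 0.000977). The epoxide hydrolases EPHX1 and EPHX2, which open epoxides such as those CYP1 enzymes make, gave 0.84 (adjusted p = 0.156) and 0.61 (adjusted p = 0.295). In NP against MNB, EPHX1 fell by 3.29 (adjusted p = 0.00053) and EPHX2 fell by 3.70 (adjusted p = 0.000324). EPHX2 stood at 45.7 and 47.8 CPM in NP, against 546 and 673 CPM in MNB.

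Enzymes that make or consume possible AHR ligands of the kynurenine and indole type were tested in 11 cases. In MN-Exp against MN-Ctrl 1 rose and 0 fell (21.7% of all genes called; median log2 fold change -0.70). KYNU, kynureninase, stood at 138 and 50.6 CPM in MN-Exp, 18.7 and 24.5 CPM in MN-Ctrl, 1.83 and 3.39 CPM in NP, and 108 and 110 CPM in MNB. It rose by 2.12 in MN-Exp against MN-Ctrl (adjusted p = 0.0141), lost without MN-Exp replicate 1 (adjusted p = 0.148). It fell in MN-Ctrl against MNB by 2.34 (adjusted p = 0.0092) and in NP against MNB by 5.37 (adjusted p = 0.000231). MN-Exp and MNB overlapped, above MN-Ctrl, and NP was lowest.

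Another receptor for foreign compounds was highest where AHR was lowest. NR1I2, the pregnane X receptor of gut and liver, stood at 11.6 and 8.99 CPM in MN-Exp, 298 and 169 CPM in MN-Ctrl and 1.05 and 0.672 CPM in MNB, with 1 count over both NP libraries. It fell by 4.50 in MN-Exp against MN-Ctrl (adjusted p = 0.000188) and rose by 8.07 in MN-Ctrl against MNB (adjusted p = 3.37e-05). NR1I2 also rose in MN-Exp against MNB, by 3.57 (adjusted p = 0.0340), where 0.0967% of all genes were called. That call was lost on library totals alone and without any 1 library of MN-Exp or MNB. NR1I2 was thus above both native tissues in both neobladders. Its partner RXRA stood at 42.1 and 58.4 CPM in MN-Exp and at 16.7 and 20.2 CPM in MN-Ctrl (1.45, adjusted p = 0.0217), lost without MN-Exp replicate 2 (adjusted p = 0.174). Of 10 genes of the PAS-domain and hypoxia list, which use ARNT or its relatives, 0 were called in MN-Exp against MN-Ctrl. In that comparison 21.7% of all genes were called. Of the 10, 4 had an unadjusted p under 0.05 and DESeq2 called 0. HIF1A stood at 126 and 128 CPM in MN-Exp, against 79.6 and 13.1 CPM in MN-Ctrl. EPAS1 stood at 116 and 227 CPM in MN-Exp, against 101.9 and 22.7 CPM in MN-Ctrl. In MN-Ctrl against NP, 4 of the 10 fell and 0 rose, a share close to the 42.3% of all genes called.

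Cell type markers moved with these groups, and in bulk tissue fewer cells of a type and less RNA per cell cannot be told apart. The summed level of 8 urothelium markers was 4479 and 8607 CPM in MN-Exp, 70.7 and 179 CPM in MN-Ctrl, 530 and 975 CPM in NP, and 10001 and 8950 CPM in MNB. All 8 rose in MN-Exp relative to MN-Ctrl and 7 fell in NP relative to MNB. The uroplakin UPK1A was at 0 in MN-Ctrl replicate 1 and in both NP libraries. NQO1 and KYNU were likewise higher in both MN-Exp and both MNB libraries than in the other 4. Between the low groups they were higher in MN-Ctrl, whereas the summed urothelium markers were higher in NP. Of the 8 markers, 1 was called higher and 2 lower in MN-Ctrl against NP, so the list did not move as one. The summed level of 7 enterocyte markers was 46.4 and 33.8 CPM in MN-Exp and 38856 and 161047 CPM in MN-Ctrl, against 46.1 and 42.2 CPM in NP and 30.7 and 28.4 CPM in MNB. All 7 fell in MN-Exp relative to MN-Ctrl, and CDX2, which specifies intestine, was at 0 in MN-Exp and MNB. NR1I2 was highest in the same libraries as the enterocyte markers, but in MN-Exp it was also above MNB and NP. The summed enterocyte markers of MN-Exp overlapped those of NP. CYP1A1, high in both neobladders, followed neither list. Of 4 matched mesothelium markers, which include the keratins KRT8 and KRT18 of other simple epithelia, CALB2 was at 0 in all 8 libraries. WT1 was counted in both NP libraries and was at 0 in both MNB libraries, MN-Exp replicate 1 and MN-Ctrl replicate 1. The 4 summed to 1529 and 1967 CPM in MN-Exp, 6672 and 5145 CPM in MN-Ctrl, 969 and 2299 CPM in NP, and 2391 and 1727 CPM in MNB. Of 3 tested, 1 rose and 1 fell in NP against MNB (21.1% of all genes called). Fibroblast markers (7 genes) summed to 3886 and 3893 CPM in MN-Exp, 2571 and 1123 CPM in MN-Ctrl, 51197 and 69209 CPM in NP, and 13447 and 15089 CPM in MNB. T cell markers (4 genes) summed to 173 and 102 CPM in MN-Exp, 271 and 454 CPM in MN-Ctrl, 27.0 and 36.8 CPM in NP, and 92.1 and 83.5 CPM in MNB. Of these, 3 fell in MN-Exp relative to MN-Ctrl, and all 4 rose in MN-Ctrl relative to NP and to MNB. Macrophage markers (5 genes) summed to 301 and 256 CPM in MN-Exp and 572 and 1539 CPM in MN-Ctrl, against 271 and 306 CPM in NP and 313 and 313 CPM in MNB. Smooth muscle markers were higher in MN-Exp (4545 and 5201 CPM) and MNB (3913 and 4196 CPM) than in MN-Ctrl (809 and 837 CPM) and NP (1226 and 1150 CPM), and 4 of 5 rose in MN-Exp relative to MN-Ctrl. Endothelium markers (4 genes) summed to 379 and 341 CPM in MN-Exp, 176 and 96.9 CPM in MN-Ctrl, 1899 and 1430 CPM in NP, and 351 and 425 CPM in MNB. The part of cell makeup in the member levels was not tested.

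**Figure D4:**
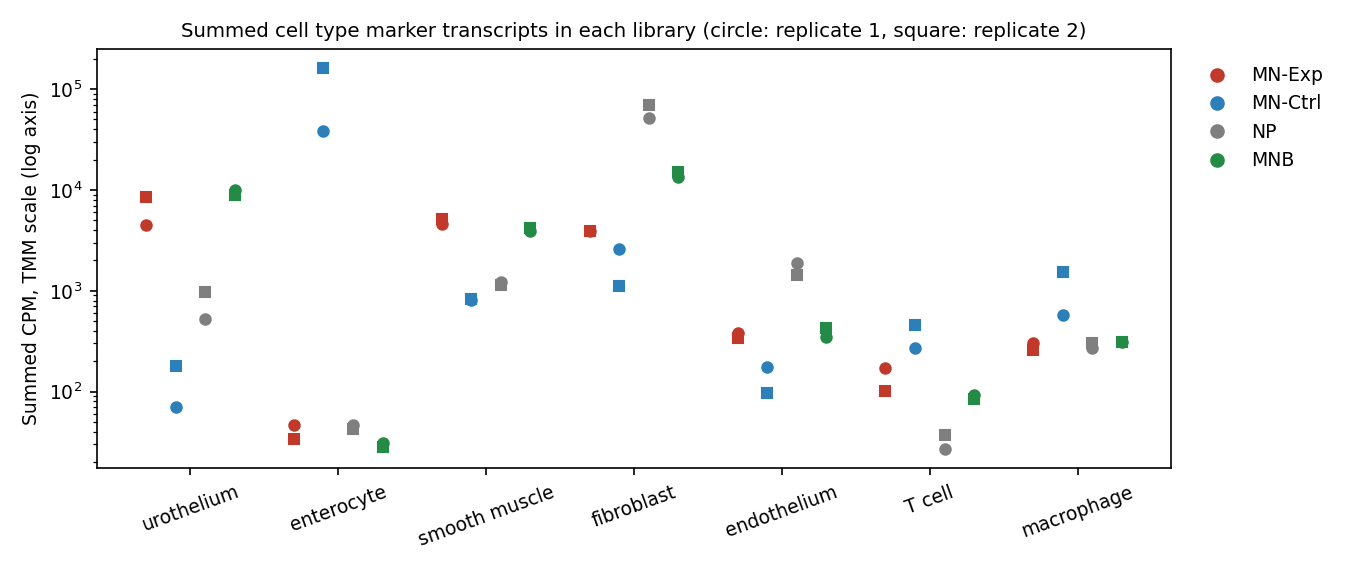
Summed level of 7 lists of cell type markers in every library, in CPM on the TMM scale (log axis). Colours are groups, circles replicate 1 and squares replicate 2. Urothelium markers were low in MN-Ctrl (70.7 and 179 CPM), and enterocyte markers were high only there (38856 and 161047 CPM).

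The 6 genes whose log2 CPM ran most like that of CYP1A1 over the 8 libraries, among 9864 named genes with a mean of 5 CPM or more, included GPX3, KPNA1, TSKU, ILRUN and CAPZB, with Pearson's r of 0.95 to 0.98. GPX3, a secreted glutathione peroxidase, stood at 192 and 228 CPM in MN-Exp, 144 and 145 CPM in MN-Ctrl, 73.0 and 62.3 CPM in NP, and 89.2 and 78.5 CPM in MNB. TSKU, which encodes a secreted protein, stood at 321 and 722 CPM in MN-Exp, 386 and 136 CPM in MN-Ctrl, 66.8 and 41.0 CPM in NP, and 61.8 and 48.1 CPM in MNB. In the ranking for CYP1A1, NR1I2 stood at 124 (r = 0.78) and CYP1B1 at 204 (r = 0.75). On library totals alone, 0 of the 6 genes were among the 6 most like CYP1A1. For CYP1B1 they were ZBTB7A, MAX, DUSP4, PEX14, UBE2Z and HS3ST1, with r of 0.91 to 0.97, and 4 of these 6 remained on library totals. HS3ST1, which sulfates heparan, stood at 245 and 542 CPM in MN-Exp, 21.1 and 36.3 CPM in MN-Ctrl, 27.7 and 29.6 CPM in NP, and 91.3 and 30.3 CPM in MNB. These values share libraries, depth and scaling, and they describe a likeness only.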

How the data were processed

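Total RNA from fresh tissue was made into complementary DNA with Smart-seq2 and into TruSeq libraries, per the labels. The deposited files give unnormalised counts for each Ensembl gene. The submitters' processing notes name Trim Galore, HISAT2, HTSeq 0.11.1 and the Sscrofa11.1 assembly. Settings, strandedness and the annotation release are not given in the sources used here.

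The deposited counts were filtered by filterByExpr, scaled by TMM and tested in edgeR 4.0.16 (limma 3.58.1, R 4.3.3). All 4 groups entered 1 robust quasi-likelihood fit (4 residual degrees of freedom, biological coefficient of variation 0.382), and p-values were adjusted by the Benjamini-Hochberg method within each of 6 comparisons. The test was checked on simulated data. The members, 7 pathway lists, 9 marker lists and tests were chosen with earlier results of these data known. Genes were named by rule: the 7 members and CYP1A2, up to 6 listed genes with the smallest p and the 2 highest in each pathway list, and the 6 genes most like CYP1A1 and CYP1B1. Symbols were matched through a table of pig Ensembl IDs, which named 15029 of 31907 genes, and listed genes without a match were not analysed here. Positions are RefSeq spans, with none matched for CYP1B1. The fit was repeated without each library, with replicate number as a block, on the 2 compared groups only, without the filter, on unscaled totals, and with DESeq2 1.42.0 or its size factors. Deviations of same-numbered libraries from their group means correlated at -0.0795 to 0.0911, so the numbers were not treated as pairs. Floors and counts cover counting error only. A few named genes eligible by the rule are not reported here.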

Additional observations from a re-analysis of the deposited data

How the results depend on the processing

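No fold change of a tested member reversed its sign in the alternatives run. Of these fold changes under the alternatives, 249 kept the side of the threshold, 22 lost the call and 9 gained it. On library totals alone, 2 members were called in NP against MNB. With replicate number as a block (replicate block), 3 members were called in MN-Exp against MN-Ctrl, 2 in MN-Ctrl against MNB, 4 in MN-Ctrl against NP and 3 in NP against MNB, where ARNT gave adjusted p = 0.0666. Leaving out each library in turn gave 2 to 4 members called in MN-Ctrl against MNB and 2 to 4 in NP against MNB. AHR in MN-Exp against MN-Ctrl was not called with the 2 groups alone (adjusted p = 0.0736), and AHR in MN-Ctrl against NP lost its call in 7 alternatives (adjusted p = 0.0516 to 0.160). Of listed pathway genes called, 5 of 11 in MN-Exp against MN-Ctrl, 5 of 16 in MN-Ctrl against MNB and 12 of 27 in NP against MNB were called without any 1 library.

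Counts over all genes moved more. With the 2 groups alone, 2340 genes were called in MN-Exp against MN-Ctrl, 2294 in MN-Ctrl against MNB, 5803 in NP against MNB, 453 in MN-Exp against MNB and 6215 in MN-Exp against NP. MN-Exp against MNB gave 5 calls on library totals, 352 with no low-count filter and 249 by DESeq2, beside 16. Leaving out each library gave 1396 to 6358 calls in MN-Exp against MN-Ctrl, 1442 to 6485 in MN-Ctrl against MNB, 1343 to 5794 in NP against MNB, 3 to 297 in MN-Exp against MNB and 1762 to 6444 in MN-Exp against NP. The cause was not tested. On library totals alone the log2 fold change had a median over all genes of 0.89 in MN-Exp against MN-Ctrl, -0.97 in MN-Ctrl against MNB and -0.96 in MN-Ctrl against NP, beside 0.11, -0.11 and -0.06, and 77.1, 18.7 and 24.9% of calls were higher, beside 48, 50.4 and 51.2%. In MN-Exp against MNB 60% were higher, beside 43.8%. The log2 fold change of CYP1A1 in MN-Exp against MN-Ctrl was 3.02 on library totals, before any allowance for that shift of all genes. A search of promoters for the receptor's binding motif was not run. With 2 libraries a group and 4 residual degrees of freedom, changes near the spread of the libraries could not be called.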

Other observations

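Genes beside CYP1A1 on chromosome 7 were listed after the data had been seen. Of named genes within 200000 bases, RPP25, FAM219B, MPI, SCAMP2, ULK3, CSK, EDC3, CLK3 and ARID3B were tested by edgeR. In MN-Exp against MN-Ctrl 0 of these 9 were called (adjusted p = 0.167 to 0.993), where 21.7% of all genes were called. There were 0 at an unadjusted p under 0.05 and 0 called by DESeq2. In MN-Ctrl against MNB 0 were called (22.3% of all genes), with 1 at an unadjusted p under 0.05 and 1 called by DESeq2. In MN-Ctrl against NP, RPP25, MPI, CSK and EDC3 rose (4 of 9, adjusted p = 0.00423 to 0.0388), where 42.3% of all genes were called. In NP against MNB, 1 of the 9, MPI, fell (adjusted p = 0.0114), where 21.1% of all genes were called. In the comparisons that chose the set, 0 of the 9 were called in MN-Exp against MNB, where 0.0967% of all genes were called. There were 0 at an unadjusted p under 0.05 and 0 by DESeq2. In MN-Exp against NP 3 were called, with RPP25, MPI and EDC3 higher in MN-Exp and 24.2% of all genes called.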
